A study of Mus musculus with 6 samples.

Results

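Hox genes encode homeodomain transcription factors and lie in 4 clusters, Hoxa, Hoxb, Hoxc and Hoxd, on mouse chromosomes 6, 11, 15 and 2. They were taken from the deposited expression table as every entry whose symbol is Hox, a cluster letter and a group number, which gave 39 of 26728 entries. Expression was measured by RNA sequencing in the carotid body, the chemosensory organ at the fork of the carotid artery, and in the adrenal medulla, the inner part of the adrenal gland, whose chromaffin cells secrete catecholamines. All mice were untreated adults of the strain C57/BL6, with no transgene or deletion named in the labels. Each tissue was represented by 3 libraries, and each library was 1 pool, which combined organs of 10 mice, 18 of them for the carotid body and 10 for the adrenal medulla.

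Within each cluster the genes stand in the order in which they are used along the body axis of the embryo. Genes of the low paralogue groups, at one end of the cluster, are active from the hindbrain and neck backwards, and genes of the high groups only towards the tail. Genes of the same group in different clusters are copies of one ancestral gene. The combination that a cell expresses records its position, and fibroblasts, vascular cells and neural crest derivatives of adults keep such a record. The carotid body forms beside the third pharyngeal arch artery in the neck, and the adrenal gland forms in the trunk. Groups 1 to 3 are called anterior here, groups 4 to 8 central and groups 9 to 13 posterior.

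The libraries held 13266225 to 16445925 reads. RPKM values, reads scaled by mRNA length and library size, resolved into whole reads, and 1 read on an mRNA of 2 kb was worth 0.0304 to 0.0377 RPKM. Both tissues carried markers of other cells. The summed level of 10 adrenal cortex genes was 11380 to 14292 RPKM in the adrenal medulla pools and 93.5 to 195 in the carotid body pools, and 10 of 10 were called higher in the adrenal medulla. The carotid body was richer in fibroblast genes (2543 to 3290 against 85.8 to 226 RPKM, 10 of 10 called), smooth muscle and pericyte genes (9 of 10) and endothelial genes (7 of 10). All 9 tested glial genes were called there too, with a summed level of 587 to 747 RPKM against 128 to 142. Of 10 chromaffin and glomus genes, 7 were higher in the adrenal medulla and 1 in the carotid body. Leukocyte genes (3 of 5 tested), neuronal genes (4 of 9) and skeletal muscle genes (2 of 6) had calls towards the carotid body, and 9 adipocyte genes and 2 thyroid, parathyroid or thymus genes had none. No kidney gene reached the filter. Over all genes tested, 14.2% were called towards the carotid body and 7.73% towards the adrenal medulla. Which cells the Hox reads came from was not tested, and in whole tissue fewer expressing cells and less RNA per cell cannot be told apart.

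The homeobox, the 180 bases that encode the DNA-binding homeodomain, is where Hox genes are most alike, and reads from it could be assigned to the wrong paralogue. Hoxa2 (chr6:52163411-52163590, minus strand) and Hoxb2 (chr11:96352985-96353164, plus strand), the most abundant pair of paralogues in the carotid body, are shown because Hoxa2 was called between the tissues and Hoxb2 was not. The sequences are from GENCODE M21 transcripts on GRCm38, lie in exon 2 of 2 of each gene, and have capitals for each of the 46 bases that differ from the other gene.
Hoxa2: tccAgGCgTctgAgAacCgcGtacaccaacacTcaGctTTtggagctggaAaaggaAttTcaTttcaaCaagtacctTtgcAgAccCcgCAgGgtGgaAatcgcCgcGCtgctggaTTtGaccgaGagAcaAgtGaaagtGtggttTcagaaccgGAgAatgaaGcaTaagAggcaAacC
Hoxb2: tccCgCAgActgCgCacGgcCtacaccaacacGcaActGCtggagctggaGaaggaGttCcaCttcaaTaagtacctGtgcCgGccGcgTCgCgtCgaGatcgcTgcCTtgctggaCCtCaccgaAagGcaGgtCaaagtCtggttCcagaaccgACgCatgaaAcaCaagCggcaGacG

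The 42 pairs of the same group were 67.2% to 93.9% identical over the homeobox, with a median of 80.6%, and the 699 pairs of different groups had a median of 60.6%. The longest stretch without a difference was 11 bases in Hoxa2 and Hoxb2. Group 3 had the closest pair within a group, with 93.9% identity of Hoxa3 and Hoxb3 and a shared stretch of 47 bases in Hoxb3 and Hoxd3. Genes of different groups also shared long stretches: 47 of their 699 pairs had one of 25 bases or more, against 8 of the 42 pairs of the same group, and the longest was 52 bases in Hoxa6 and Hoxb4. A read that falls wholly within such a stretch cannot separate the genes, and the read length is not given in the sources used here. Outside the homeobox, Hoxd3 and Hoxd4 share 388 exonic bases and Hoxc5 and Hoxc10 share 166. A further limit is strand: 10 Hox genes share exonic bases with a gene on the opposite strand, among them Hoxa3, Hoxa4, Hoxa7, Hoxb2, Hoxb3 and Hoxb5, and whether strand was kept is not stated. The largest such overlaps are with Hoxb3os, 2250 bases of Hoxb3 and 953 bases of Hoxb2. How many reads of these genes came from the opposite strand is not known.

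The carotid body expressed few Hox genes at low levels and from the anterior end of 2 clusters. The adrenal medulla expressed more, most of them central genes, from all 4 clusters. It also expressed Hoxb2 and Hoxb3 of the anterior class and Hoxb9, Hoxc9 and Hoxd9 of the posterior class. Counting a gene as detected at 1 RPKM in each of the 3 pools, 7 Hox genes were detected in the carotid body pools and 18 in the adrenal medulla. No read was found in any library for 9 of the 39 genes, which were Hoxa11, Hoxa13, Hoxb13, Hoxc11, Hoxc12, Hoxc13, Hoxd1, Hoxd12 and Hoxd13. A count of 0 allows up to 3 reads, or 0.0912 to 0.113 RPKM for an mRNA of 2 kb in 1 library. The comparison on log2(RPKM + 1), with limma and Benjamini-Hochberg adjustment over 13357 genes with 3 or more libraries at 1 RPKM, included 21 Hox genes. The calls towards the carotid body were 3 (Hoxa2, Hoxa3 and Hoxa4), beside 14.2% of all genes tested, and those towards the adrenal medulla were 16, beside 7.73%. Hoxb2 and Hoxb3 were not called in either direction. The median log2 difference, carotid body minus adrenal medulla, was -1.65 over the 21 Hox genes and 0.02 over all genes tested. Hoxc9, which had no carotid body read, moved from -1.22 to -1.16 when set at a floor of 3 reads. Both values lie above the Hox median, which therefore could not change. Only 5 of the 21 reached the filter through both tissues, while 13 passed through the adrenal medulla alone and 3 through the carotid body alone. A gene that passed through its higher tissue alone had to differ, so the counts are a description of the 21 and not of all 39.

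**Figure D1:**
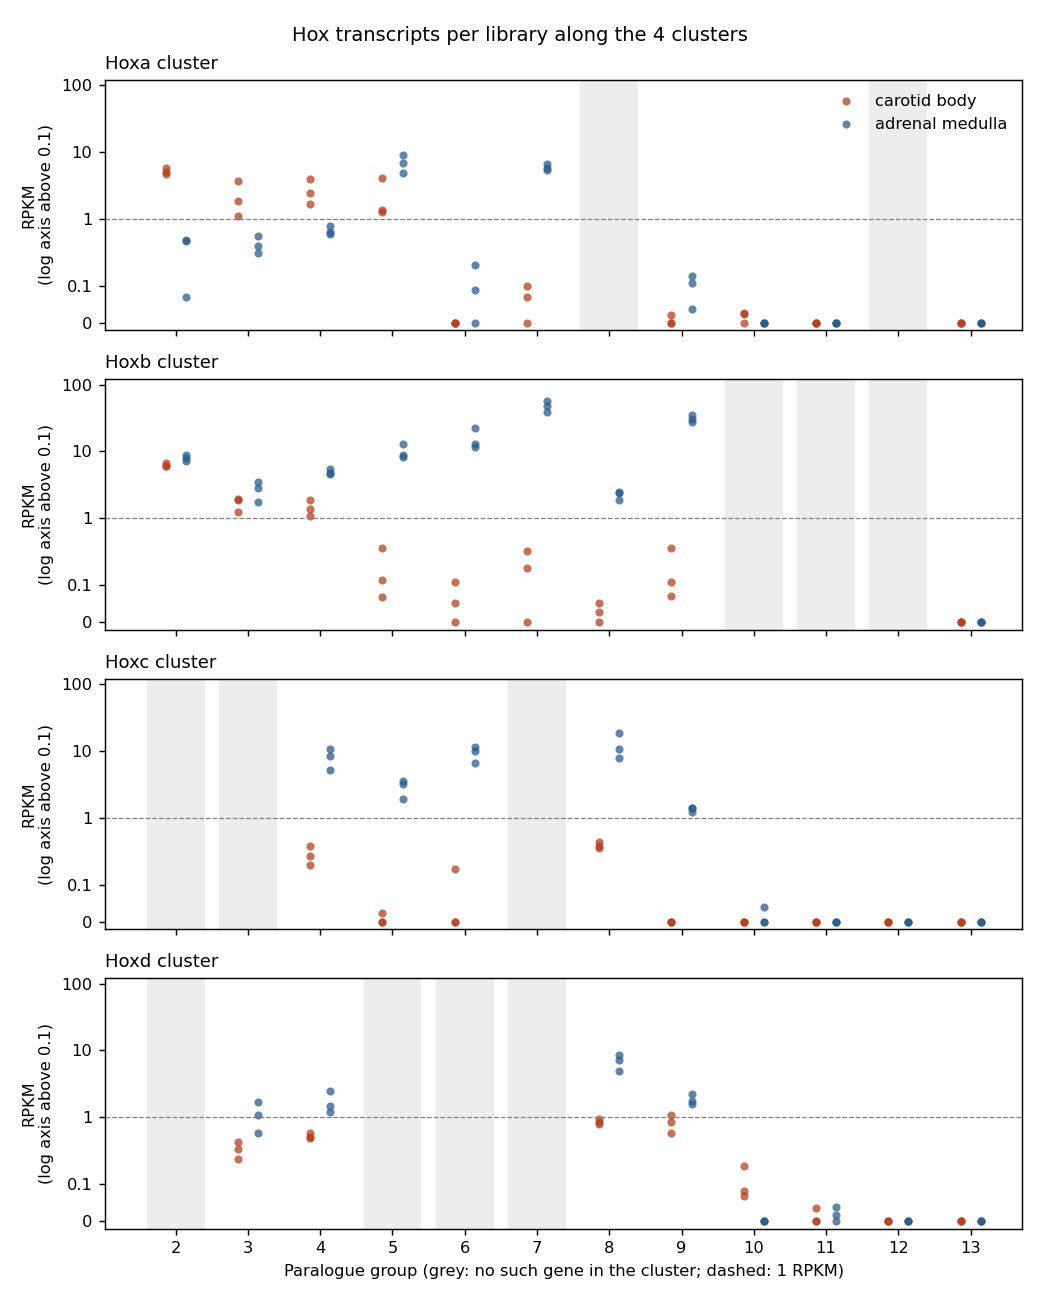
RPKM of Hox genes in each of the 6 pools (points), by paralogue group from 2 to 13 along the x axis and with 1 panel per cluster; the y axis is logarithmic above 0.1 and linear below, grey columns are groups without a gene and the dashed line is 1 RPKM. Carotid body points lie above adrenal medulla points in groups 2 to 4 of Hoxa, and adrenal medulla points lie above in groups 4 to 9 of Hoxb and Hoxc, up to 57.2 RPKM for Hoxb7.

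By cluster, the calls divided unevenly. Of 11 Hoxa genes, 5 were tested, 3 higher in the carotid body pools and 2 in the adrenal medulla. Of 10 Hoxb genes, 8 were tested, and 6 were higher in the adrenal medulla with 2 not called. All 5 tested of 9 Hoxc genes and all 3 tested of 9 Hoxd genes were higher in the adrenal medulla. By class, the 4 tested anterior genes gave 2 calls to the carotid body and none to the adrenal medulla. The 14 tested central genes gave 1 and 13, and the 3 tested posterior genes gave 0 and 3. The 3 carotid body pools all lay above the 3 adrenal medulla pools for 5 of the 39 genes, Hoxa2, Hoxa3, Hoxa4 and Hoxd10 among them, and below them for 19. Of the 21 tested Hox genes these were 3 and 17, and among all genes tested the shares were 22.3% and 14.7%, or 37.0% together.

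Hoxa2, the selector gene of the second pharyngeal arch, had the largest difference towards the carotid body. Its level was 5.01, 5.69 and 4.595 RPKM in carotid body pools 1, 2 and 3 and 0.461, 0.474 and 0.0685 in adrenal medulla pools 1, 2 and 3. No adrenal medulla pool came near a carotid body pool. The log2 difference was 2.20 ± 0.20 (SE; limma adjusted p = 1.06e-04). In reads the ratio was 15.9 (95% exact interval 10.6 to 24.9, which covers counting error only, since amplified reads are not independent molecules). Hoxb2, its paralogue and a gene of the hindbrain and facial nerve, was the most abundant Hox transcript of the carotid body, with 6.68, 6.10 and 6.02 RPKM against 8.08, 7.26 and 8.80. All 3 adrenal medulla pools were above all 3 carotid body pools, and the difference of -0.31 on the log2 scale (95% interval -0.77 to 0.14, adjusted p = 0.333) did not pass the test. Group 2 thus held 1 gene read mainly in the carotid body and 1 that was well expressed in both organs.

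Group 3 repeated this division at lower levels. Hoxa3, which is needed in the third pharyngeal arch for the thymus, the parathyroid and the carotid body itself, was at 1.11, 3.62 and 1.82 RPKM in the carotid body pools and at 0.556, 0.386 and 0.311 in the adrenal medulla. Carotid body pool 2 was the highest, and the tissues did not overlap. Its log2 difference was 1.09 ± 0.27 (SE; adjusted p = 0.0204). The adjusted p was 0.0627 without adrenal medulla pool 2 and, with a filter of 2 libraries, 0.0512 without carotid body pool 3. Hoxb3, which acts with Hoxa3 in the pharyngeal arches, stood at 1.24, 1.91 and 1.88 RPKM against 3.49, 2.81 and 1.76. The highest carotid body pool exceeded the lowest adrenal medulla pool, and the log2 difference of -0.44 (95% interval -0.97 to 0.09, adjusted p = 0.233) was not called. Hoxd3 had 10, 13 and 19 reads against 23, 45 and 80 and did not reach the filter. The read ratio was 3.46 towards the adrenal medulla (2.44 to 4.997), with an adjusted p of 0.0509 from limma voom on the reads and of 0.0475 on log2(RPKM + 1) with a filter of 10 reads, a setting that called 6.93% of genes in that direction.

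In group 1, Hoxb1, a hindbrain gene of the fourth rhombomere, was near the limit of detection, with 5, 7 and 2 reads in the carotid body and 20, 10 and 1 reads in the adrenal medulla. The pools of both tissues overlapped, and the voom adjusted p was 0.819. Hoxd1 had no read.

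Group 4, the only group with a gene in each cluster that passed the filter, was split between the clusters. Hoxa4, a gene of the neck and upper trunk, was at 2.39, 3.90 and 1.68 RPKM in the carotid body pools and 0.779, 0.642 and 0.597 in the adrenal medulla. The log2 difference was 1.08 ± 0.23 (SE; adjusted p = 0.0099). Hoxb4, its nearest relative in Hoxb and known for the expansion of blood stem cells, went the other way, at 1.88, 1.38 and 1.08 RPKM against 5.40, 4.56 and 4.69. Its log2 difference was -1.28 ± 0.20 (adjusted p = 0.0020). Neither gene had overlapping pools. Hoxc4 was at 0.382, 0.266 and 0.194 RPKM against 8.48, 10.8 and 5.18 (log2 -2.79, adjusted p = 1.18e-04), a wider gap than for Hoxb4. Hoxd4, at 0.485, 0.589 and 0.502 against 1.22, 1.48 and 2.47 RPKM, differed by -0.81 (adjusted p = 0.0173). That call was lost without any 1 of the carotid body pools, at adjusted p from 0.0590 to 0.0848 under the filter of 3 libraries; under a filter of 2 libraries it was kept without pool 2. The 388 bases shared with Hoxd3 leave part of its reads uncertain.

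In group 5 all 3 genes were higher in the adrenal medulla. Hoxa5, a regulator of lung and neck skeleton, was the highest-numbered Hoxa gene detected in the carotid body, at 1.25, 4.06 and 1.37 RPKM against 8.96, 6.76 and 4.79. Carotid body pool 2 came closest to the adrenal medulla pools, without overlap. The log2 difference was -1.35 ± 0.35 (SE; adjusted p = 0.0250), and the adjusted p was 0.0709 to 0.117 when pool 1 or 3 of the carotid body, or pool 1 or 2 of the adrenal medulla, was left out, and 0.0523 with all 6 libraries and no filter. Hoxb5, a neural crest and gut innervation gene, was at 0.360, 0.118 and 0.0672 RPKM against 8.80, 8.13 and 13.1 (log2 -3.20 ± 0.23, adjusted p = 3.46e-05). Hoxc5 had 0, 0 and 1 reads against 118, 139 and 85 (log2 -1.92, adjusted p = 2.08e-04). From Hoxb5 to Hoxb9 every carotid body pool was below 1 RPKM and every adrenal medulla pool above it.

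Carotid body pool 2 was the highest carotid body pool for Hoxa3, Hoxa4 and Hoxa5 together. Summed over Hoxa it stood at 18.1 RPKM against 10.5 and 9.90 in pools 1 and 3. For Hoxb the 3 pools were at 11.1, 10.2 and 9.18 RPKM. The same pool had the highest sum of 10 adipocyte genes, 3879 RPKM against 441 and 937. In the adrenal medulla pool 3 was highest, with 2364 RPKM against 784 and 232. It also had almost no reads of the Y-linked gene Ddx3y (0.0786 RPKM against 33.7 and 33.0). The X-linked Xist was at 4.80 RPKM in it against 0.249 and 0.176. The part of these differences in the Hox levels was not tested. With both pools left out, the planned filter of 3 libraries gave 0 calls towards the carotid body and 2 towards the adrenal medulla. Genes at 1 RPKM in 1 tissue alone cannot pass that filter with 2 pools. A filter of 1 RPKM in 2 libraries, chosen after seeing the data, kept 19 of the 19 calls in the same direction.

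In groups 6 and 7 all 4 tested genes were higher in the adrenal medulla. Hoxb7, a gene of trunk vertebrae and the kidney duct, was in RPKM the most abundant Hox transcript of the adrenal medulla. It was at 57.2, 47.8 and 38.3 RPKM there and at 0.326, 0.178 and 0 in the carotid body. The log2 difference was -5.38 ± 0.23 (SE; adjusted p = 9.89e-06), and 2641 reads stood against 9, a ratio of 288 (152 to 631). Hoxa7, its paralogue, was at 0.0706, 0 and 0.0987 RPKM against 5.45, 6.64 and 5.70 (log2 -2.71 ± 0.17, adjusted p = 2.03e-05). Hoxb7 was the higher of the pair in every adrenal medulla pool. Hoxb6 stood at 0.0513, 0.112 and 0 RPKM against 11.6, 12.98 and 22.3 (log2 -3.93, adjusted p = 2.61e-05). Hoxc6, which marks thoracic levels, stood at 0.173, 0 and 0 against 11.6, 10.1 and 6.53 (log2 -3.27, adjusted p = 3.46e-05). Adrenal medulla pool 3 was the highest for Hoxb6 and the lowest for Hoxc6. Hoxa6 was the exception of its group, with 0, 0 and 0 reads against 0, 2 and 1.

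Group 8 left more reads in the carotid body. Hoxd8 was at 0.939, 0.807 and 0.844 RPKM there against 8.44, 7.19 and 5.001 (log2 -2.06 ± 0.22 (SE), adjusted p = 2.52e-04). Hoxc8, a gene of thoracic motor neurons and ribs, was at 0.436, 0.350 and 0.380 against 18.5, 10.7 and 7.88 (log2 -3.19 ± 0.29, adjusted p = 1.16e-04). The carotid body pools lay close together for both genes. Hoxb8, which also acts in blood progenitors and microglia, was at 0.0521, 0.0285 and 0 RPKM against 1.86, 2.38 and 2.48 (log2 -1.65 ± 0.15, adjusted p = 1.11e-04). In the adrenal medulla Hoxb8 was far below its neighbours on either side, Hoxb7 and Hoxb9, in each of the 3 pools.

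Among the posterior genes, group 9 was expressed and the others were at or near 0. Hoxb9, which patterns the thoracic skeleton and the mammary gland, was in RPKM the next most abundant Hox transcript of the adrenal medulla after Hoxb7. It was at 35.6, 30.9 and 27.5 RPKM there against 0.356, 0.111 and 0.0711 in the carotid body. The log2 difference was -4.78 ± 0.21 (SE, limma adjusted p = 9.89e-06). In reads Hoxb9 was above Hoxb7 in each adrenal medulla pool, at 1296, 1196 and 1227 against 976, 865 and 800. The order in RPKM thus rests on the mRNA lengths, 2.71 kb for Hoxb9 and 1.27 kb for Hoxb7. Hoxc9, which fixes the thoracic identity of motor neurons, had 28, 34 and 39 reads in the adrenal medulla and none in the carotid body, at least 33.0-fold higher against a floor of 3 reads over the 3 pools, where the exact 95% interval of the read ratio starts at 26.4. Its log2 difference was -1.22 (adjusted p = 2.40e-04). Hoxd9 had the highest carotid body level of the posterior genes, at 0.591, 0.861 and 1.07 RPKM in the carotid body pools and 2.23, 1.77 and 1.59 in the adrenal medulla. It differed by -0.64 (adjusted p = 0.0323), and the call was lost in limma voom (adjusted p = 0.0572), without any 1 library other than adrenal medulla pool 3 (0.0759 to 0.148) and, at 0.0577, when pool 2 of the carotid body and pool 3 of the adrenal medulla were both left out, under the filter of 3 libraries. Hoxa9 had 1, 0 and 0 reads against 6, 5 and 2, and its voom adjusted p was 0.0651.

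Beyond group 9 the only gene seen in every pool of a tissue was Hoxd10, a limb and lumbar gene, with 5, 2 and 2 reads in the carotid body and none in the adrenal medulla. That is at least 3.06-fold higher against a floor of 3 reads over the adrenal medulla pools, and the exact 95% interval of the read ratio, which also counts the error of the 9 reads, starts at 2.01. With 9 reads in all it reached neither the filter of 1 RPKM nor that of 10 reads, so it was not tested. Hoxa10 had 1, 0 and 1 reads in the carotid body and none in the adrenal medulla. Hoxc10 had 1 read, in adrenal medulla pool 1, and Hoxd11 had 2 reads against 3.

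**Figure D2:**
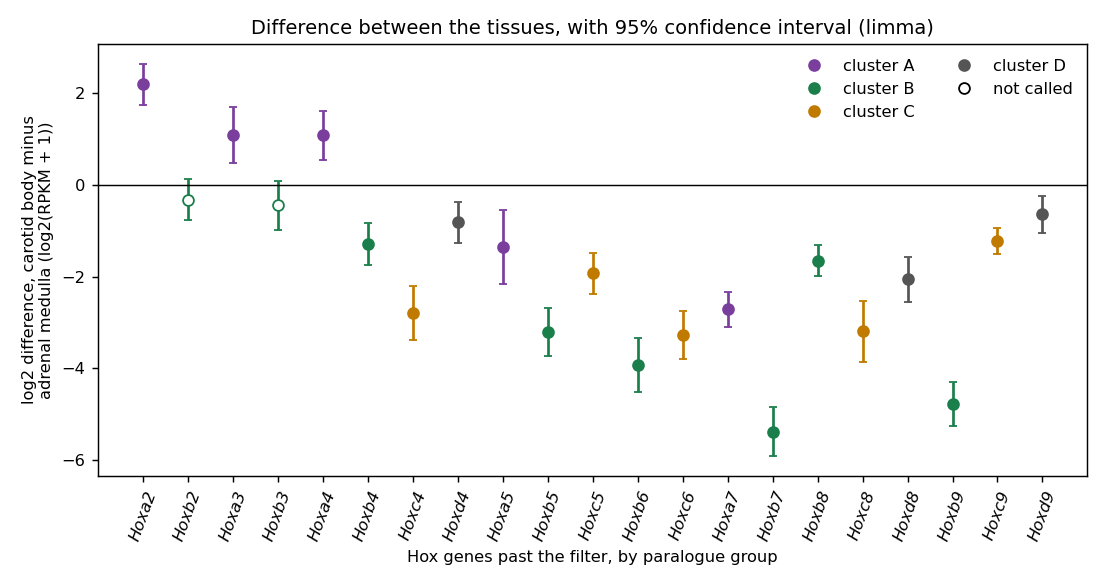
The log2 difference (y axis, carotid body minus adrenal medulla, log2(RPKM + 1)) with its 95% confidence interval from limma for the 21 Hox genes past the filter, ordered along the x axis by paralogue group and coloured by cluster; open circles were not called. Hoxa2, Hoxa3 and Hoxa4 lie above 0, Hoxb2 and Hoxb3 have intervals across 0, and the lowest point is Hoxb7 at -5.38.

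The log2(RPKM + 1) scale understates differences of low genes. On recovered reads, limma voom gave the same sign for 21 of 21 genes, a larger difference for 21 and one larger by over 1.5 times for 16. It called 18 of the 19 genes called on the RPKM scale, without Hoxd9. Over the 17250 genes with 10 reads, voom called 13.3% towards the carotid body and 7.19% towards the adrenal medulla. Of the 19, 15 were called in every alternative that tested them, the others being Hoxa3, Hoxa5, Hoxd4 and Hoxd9.

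Ordered by level within a tissue, RPKM being per length, the carotid body had Hoxb2 first at 6.27 ± 0.357 RPKM (mean ± SD, n = 3) and Hoxa2 next at 5.10, and the pools of these neighbours did not overlap. Hoxa4, Hoxa5, Hoxa3, Hoxb3 and Hoxb4 followed between 2.66 and 1.45 RPKM, each overlapping the next. In the adrenal medulla Hoxb7, at 47.8 ± 9.46 RPKM, and Hoxb9, at 31.3 ± 4.05, stood apart from each other and from the rest. Hoxb6, Hoxc8, Hoxb5, Hoxc6, Hoxc4, Hoxb2, Hoxd8, Hoxa5 and Hoxa7 followed from 15.7 down to 5.93, each overlapping the next.

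The position of the last detected gene along each cluster differed between the tissues. At 1 RPKM in every pool, detection in the carotid body reached group 5 in Hoxa (Hoxa2 to Hoxa5) and group 4 in Hoxb (Hoxb2 to Hoxb4), and no gene of Hoxc or Hoxd was detected. In the adrenal medulla it reached group 7 in Hoxa, through Hoxa5 and Hoxa7 alone, and group 9 in Hoxb, Hoxc and Hoxd. The run of Hoxb genes from group 2 to group 9 was unbroken in the adrenal medulla, with 8 genes. Detection depended on the threshold: with 1 read in every pool as the limit, 18 Hox genes were seen in the carotid body pools and 24 in the adrenal medulla, and the last carotid body group was 5, 9, 8 and 10 in Hoxa, Hoxb, Hoxc and Hoxd. At 2 RPKM in every pool, Hoxa2 and Hoxb2 were the 2 detected genes of the carotid body, and 12 were detected in the adrenal medulla.

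Summed RPKM showed the same shape by class. All Hox genes together reached 25.04, 31.5 and 22.6 RPKM in the carotid body pools and 205, 180 and 164 in the adrenal medulla. The anterior genes summed to 16.3 ± 2.10 RPKM in the carotid body pools and 13.01 ± 0.904 in the adrenal medulla (SD, n = 3), a ratio of 1.25. The 3 carotid body sums, 15.0 to 18.7, were above the 3 adrenal medulla sums, 12.4 to 14.04. Central genes summed to 8.94 ± 2.78 against 136 ± 15.4 RPKM and posterior genes to 1.17 ± 0.0996 against 34.7 ± 4.37. As shares of the Hox total, anterior genes made up 59.3% to 66.9% in the carotid body pools and 6.85% to 7.70% in the adrenal medulla pools. Central genes made up 27.6% to 37.4% and 73.7% to 74.2%, and posterior genes 3.34% to 5.47% and 18.6% to 19.1%. The anterior sums thus lay much closer together than the central or the posterior sums.

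**Figure D3:**
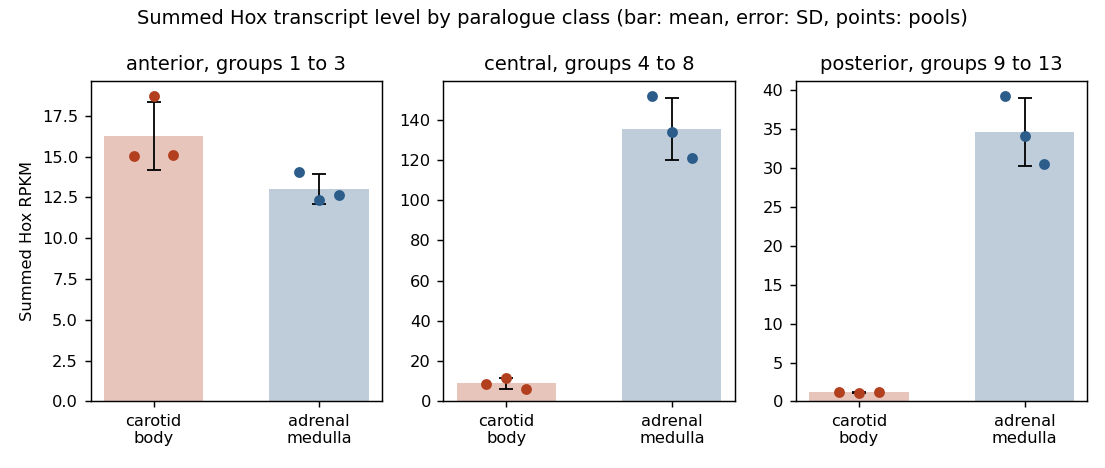
Summed Hox RPKM per pool (points), with the mean (bar) and SD (error bar) of 3 pools, for anterior, central and posterior paralogue groups; each panel has its own linear y axis from 0. The anterior sums are 16.3 and 13.01 RPKM in the carotid body and the adrenal medulla, the central sums 8.94 and 136, and the posterior sums 1.17 and 34.7.

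By cluster, the sum was 12.8 ± 4.55 against 14.4 ± 2.54 RPKM for Hoxa and 10.2 ± 0.967 against 123 ± 8.55 for Hoxb. For Hoxc it was 0.735 ± 0.223 against 34.2 ± 10.3, and for Hoxd 2.69 ± 0.217 against 11.6 ± 0.892. Hoxa was the cluster whose total overlapped between the tissues. Its reads came from different genes, since Hoxa2 to Hoxa4 were higher in the carotid body and Hoxa5 and Hoxa7 in the adrenal medulla. Hoxc was the most one-sided cluster, with 69 reads in the 3 carotid body pools and 3052 in the 3 adrenal medulla pools. Within Hoxc the adrenal medulla pools were unequal, at 43.1, 36.5 and 22.9 RPKM, with pool 3 the lowest.

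Some central and posterior reads in the carotid body were at the level of adrenal gland transcripts found there. The median level of 10 adrenal genes (Star, Cyp11a1, Cyp11b1, Cyp11b2, Cyp21a1, Hsd3b1, Pnmt, Mc2r, Nr5a1 and Fdx1), as a percentage of their adrenal medulla mean, was 0.838%, 0.179% and 0.130% in carotid body pools 1, 2 and 3. All 10 were highest in pool 1, and Fdx1, an electron carrier of steroid synthesis that other tissues also use, stood apart at 3.89%, 3.57% and 3.12%. Hoxb7 stood at 0.682%, 0.373% and 0%, and Hoxb9 at 1.14%, 0.355% and 0.227%. Pool 1 was the highest for both of these but not for Hoxb6, at 0.328%, 0.717% and 0%, nor for Hoxa7, at 1.19%, 0% and 1.66%. Hoxc8 stood near Fdx1, at 3.53%, 2.83% and 3.07% of its adrenal medulla mean. Hoxc4 was at 4.69%, 3.27% and 2.39%, and Hoxd8 at 13.7%, 11.7% and 12.3%. The source of the reads was not tested for any of them.

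**Figure D4:**
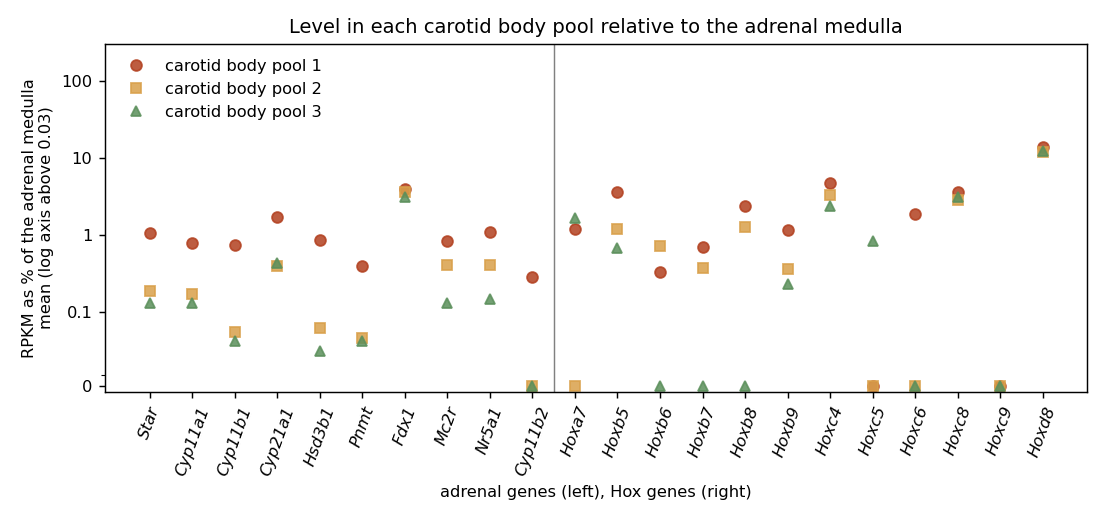
Level in each carotid body pool as a percentage of the adrenal medulla mean (y axis, logarithmic above 0.03), for 10 adrenal genes on the left and 12 of the 16 Hox genes called higher in the adrenal medulla on the right. Hoxa5, Hoxb4, Hoxd4 and Hoxd9 are not drawn, and in proportion their tissue means lay closer together. These were 2.22 against 6.84, 1.45 against 4.88, 0.525 against 1.72 and 0.841 against 1.86 RPKM, carotid body first. Hoxd8 lies at 11.7% to 13.7% and Hoxc8 at 2.83% to 3.53% in all 3 pools, and the adrenal genes are highest in pool 1.

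Noncoding genes inside the clusters were also read. Mira, a long noncoding RNA between Hoxa6 and Hoxa7, was at 0.345, 0.283 and 0.241 RPKM in the carotid body pools and 15.3, 13.9 and 12.5 in the adrenal medulla pools (log2 -3.53, adjusted p = 1.22e-05). In RPKM it was more abundant in the adrenal medulla than Hoxa6, which had 3 reads there, and than Hoxa7. In reads Mira had 164, 158 and 164 there and Hoxa7 had 143, 185 and 183. Gm53, a noncoding entry between Hoxb13 and Hoxb9, had 0 reads in the carotid body pools and 23, 23 and 43 in the adrenal medulla pools (log2 -2.05, adjusted p = 1.05e-04). The entry 1700109F18Rik, named Hoxd3os1 on GRCm38, lies opposite Hoxd3 and Hoxd4 and had 1, 2 and 1 reads against 24, 32 and 29 (log2 -1.61, adjusted p = 1.38e-04). It shares 347 exonic bases with each of them, and without strand such reads cannot be told apart. All 3 noncoding entries were higher in the adrenal medulla, as were the called Hox genes beside them. Each of the 3 passed the filter through the adrenal medulla alone, so a call could only go in that direction. Another antisense entry of the Hoxa cluster, 2700086A05Rik, had 0, 0 and 0 reads against 1, 0 and 2, and Hotair and Hoxa11as were listed at 0 in all 6 libraries.

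The clusters also carry microRNA genes, and their mature sequences are shown beside the most complete match to miR-196a among Hox transcripts, which lay in Hoxb8. No other transcripts were searched. The sequences are from RefSeq on GRCm38.p6, with the seed, bases 2 to 8, in capitals. miR-10a (chr11:96317186-96317208, plus strand) and miR-10b (chr2:74726074-74726096, plus) share one seed. miR-196a (chr11:96265187-96265208, plus, and a copy at chr15:102973365-102973386, plus) and miR-196b (chr6:52230129-52230150, minus) share another.
miR-10a-5p: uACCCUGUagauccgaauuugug
miR-10b-5p: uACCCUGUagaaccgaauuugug
miR-196a-5p: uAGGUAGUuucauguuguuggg
miR-196b-5p: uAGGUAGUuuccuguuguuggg
Hoxb8 match: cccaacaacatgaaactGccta

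The Hoxb8 match starts at base 2208 of 2635 of the GENCODE transcript. Only A with U and G with C were counted as pairs, here and in the other matches. By that count 21 of 22 bases were paired, and the capital marks the remaining base. That base is a G opposite a U of the seed, where a G-U wobble pair can form, which the count leaves out. The next best ungapped match in a Hox transcript paired 15 of 22. The best matches in Hoxa7, Hoxa9 and Hoxb7 paired 14 of 22 and did include the whole seed. Any part of these matches in the level of Hoxb8 or Hoxb7 was not tested. MicroRNA cleavage of Hoxb8 at this match is known from embryos. The precursor entries of miR-10a, miR-10b, miR-196a and miR-196b were listed at 0 in all 6 libraries, which were amplified from poly(A) tails and do not capture mature microRNAs. A match is a description of the letters, and the microRNAs themselves were not measured.

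Hox proteins bind DNA with partners of the Pbx and Meis families. Of 9 such cofactor genes, all tested, 2 were higher in the adrenal medulla and 1 in the carotid body, beside 7.73% and 14.2% of all genes tested. Pbx3 was at 3.94, 6.30 and 4.14 RPKM in the carotid body pools and 25.6, 16.9 and 12.5 in the adrenal medulla pools (log2 -1.70, adjusted p = 0.0037). Meis2 was at 7.72, 8.98 and 5.59 against 40.5, 20.6 and 15.6 RPKM (log2 -1.57, adjusted p = 0.0126). Pknox2 was the opposite case, at 3.24, 3.72 and 3.64 against 1.34, 1.16 and 1.92 (log2 0.88, adjusted p = 0.0105). The remaining 6, Meis1 among them, did not pass the test. Pknox2 was no longer called without pool 3 of the carotid body or pool 2 of the adrenal medulla (adjusted p 0.0579 to 0.0636), and Meis2 without pool 1 or 3 of the carotid body (0.0541 to 0.0616).

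Chromatin regulators that hold Hox genes silent or active had few calls, beside 21.9% of all genes called in either direction. Of 17 Polycomb and related genes, Ezh1, a methyltransferase of the silencing complex, was higher in the carotid body (18.3, 16.8 and 19.8 against 8.55, 7.32 and 8.91 RPKM, log2 1.06, adjusted p = 0.0056). Another member had a call towards the adrenal medulla, and 15 had no call. None of 8 trithorax group genes was called.

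Retinoic acid switches on Hox genes of the low groups first, and of 14 tested genes of its pathway 3 were higher in each tissue. The share called over all genes was 14.2% towards the carotid body and 7.73% towards the adrenal medulla. Rxrg, a retinoid X receptor, was at 18.2, 20.9 and 20.7 RPKM in the carotid body pools and 0.277, 0.326 and 0.792 in the adrenal medulla pools (log2 3.85). Rarg, a retinoic acid receptor, was higher in the carotid body by 0.99 on the log2 scale. Crabp1, which binds retinoic acid in the cytoplasm, was at 13.6, 7.92 and 15.997 against 76.0, 190 and 190 RPKM (log2 -3.43). Both called enzymes that make retinoic acid were higher in the adrenal medulla, Aldh1a3 at 1.79, 2.00 and 1.48 against 28.8, 26.1 and 13.6 RPKM (log2 -3.05) and Aldh1a2 with a log2 difference of -1.23 (adjusted p = 0.0188). The Aldh1a2 call was lost without pool 1 or pool 3 of the carotid body (adjusted p 0.0802 to 0.0868), and that of Rarg without pool 3 (0.0564). The tissues also differ in the cell markers given above, whose part in the retinoid genes was not tested.

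Of 7 tested genes among other known regulators of Hox transcription, 2 were higher in each tissue, beside 14.2% of all genes tested for the carotid body and 7.73% for the adrenal medulla. Egr2, which sets Hox expression in hindbrain segments, was higher in the carotid body by 1.06 on the log2 scale and was called in every alternative. Gata6 and Gmnn differed by -1.10 and -0.92 towards the adrenal medulla. The call of Gata6 was lost, at adjusted p of 0.0576 to 0.0985, without pool 2 or 3 of the carotid body or pool 1 or 2 of the adrenal medulla. That of Gmnn was lost, at 0.0544 to 0.0617, without pool 1 or 3 of the carotid body or pool 2 of the adrenal medulla. The ParaHox and Evx genes, relatives of the Hox genes, were at or near 0: 6 of 8 had no read in any library, and the others were Cdx1 and Evx1. Among 16 tested genes that flank the clusters, 15 were not called, beside 21.9% of all genes called in either direction, and Chn1, a signalling gene beyond the Hoxd cluster, was higher in the carotid body (30.5, 48.2 and 50.7 against 12.02, 12.2 and 8.81 RPKM, log2 1.86, adjusted p = 0.0012).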

How the data were processed

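Per the labels, 3 carotid body pools and 3 adrenal medulla pools were stored in RNAlater and RNA was purified on RNeasy Micro columns, amplified from the poly(A) tail with MessageAmp II, fragmented and sequenced on Illumina. Bowtie 0.9.8 and mm9 are named in the submitters' processing notes; the read length, counting tool and strand are not given in the sources used here. The authors deposited RPKM values with mRNA lengths for 23511 of 26728 entries. The 3217 entries without a length, which hold read counts as deposited and 5.85% to 8.27% of the reads, were left out of the tests. All 39 Hox genes have a length. RPKM times length, divided by the value of 1 read, was whole within 0.01 for 106276 of 106276 values above 0, and the reads summed to the RPKM denominator in 6 of 6 libraries.

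Differences were tested with limma 3.58.1 (R 4.3.3), fitted to log2(RPKM + 1) with a variance trend and no block, two-sided, for genes at 1 RPKM in at least 3 libraries, with Benjamini-Hochberg adjustment and a threshold of 0.05. Genes under the filter were described by recovered reads, with exact Clopper-Pearson 95% intervals on the split of the summed reads, and by limma voom, which was added after the values were seen. A few genes are not reported here. The other Hox genes were all described, and from each other list called members where 5 or fewer were called, otherwise the largest. The Hox genes, the lists and the alternatives were chosen with earlier results of these data known. The fit was tested on simulated data. The labels give 10 mice to a pool and no more on its source, and p-values measure only the spread between pools.

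The group numbers of the titles were shared by both tissues, and the design text can be read as both organs coming from the same 10 mice. Deviations from the tissue means correlated at 0.259, 0.128 and 0.473 for pools 1, 2 and 3 of the same number. Adrenal medulla pool 1 correlated at 0.291 with carotid body pool 2, above the values of pools 1 and 2. Adrenal medulla pool 3 had 0 RPKM of the Y-linked Eif2s3y and carotid body pool 3 had 12.1. The same 10 mice would not give both of these pools. The main fit therefore left the numbers out, and the replicate block used them as an alternative only. Homeoboxes were read from GENCODE M21 transcripts (GRCm38) and microRNAs from RefSeq tables of GRCm38.p6, a later build than that of the alignment. No coordinate was converted.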

Additional observations from a re-analysis of the deposited data

How the results depend on the processing

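Of 238 values of single Hox genes under the alternatives, 220 kept their direction and their side of the threshold, 18 kept the direction and lost the call (Hoxa3, Hoxa5, Hoxd3, Hoxd4 and Hoxd9), and none reversed. The 3 calls towards the carotid body became 4 without a filter, with 10 reads and in limma voom, and the 16 towards the adrenal medulla ranged from 15 to 17 over the alternatives that kept all 6 libraries. With the replicate block, which pairs pools of the same number, the counts were 3 and 16, and no Hox call changed.

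Leaving out 1 pool gave 0 to 3 calls towards the carotid body and 1 to 14 towards the adrenal medulla; leaving out both carotid body pool 2 and pool 3 of the adrenal medulla gave 0 and 2. Genes at 1 RPKM in 1 tissue alone drop out by the filter when a pool of that tissue is left out, since 2 such libraries cannot pass a filter of 3. Other calls were tested and lost: Hoxa5, Hoxd4 and Hoxd9 towards the adrenal medulla, and Hoxa3 without adrenal medulla pool 2 (adjusted p = 0.0627). With a filter of 2 libraries, chosen after seeing the data, the same omissions gave 2 to 3 and 13 to 16, and 15 to 19 of the 19 calls were kept. Over all genes, 1896 and 1033 calls became 926 to 1976 and 464 to 1178 without 1 pool, and 1603 towards the adrenal medulla without both named pools; the cause was not tested.

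With 1 read in every pool as the limit, the highest group detected rose in the carotid body from 4 to 9 in Hoxb, from none to 8 in Hoxc and from none to 10 in Hoxd, and in the adrenal medulla from 7 to 9 in Hoxa. At 2 RPKM it fell in the carotid body to 2 in Hoxa and 2 in Hoxb, and in the adrenal medulla to 8 in Hoxc and 8 in Hoxd. The ratio of posterior sums, carotid body over adrenal medulla, was 0.0337 in RPKM and 0.0281 in recovered reads scaled to depth; without 1 pool the ratios were 0.0318 to 0.0361, those of the central sums 0.0555 to 0.0759 and those of the anterior sums 1.16 to 1.30. The planned edgeR and DESeq2 fits were not run, and limma voom on the recovered reads was fitted in their place. A gene without a read may still be transcribed below 3 reads of the depth given.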
